A study of Mus musculus with 8 samples.

Results

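The insulin-like growth factor (IGF) genes described here are the 10 genes Igf1, Igf1r, Igf2r, Irs1, Irs2, Igfbp2, Igfbp3, Igfbp4, Igfbp5 and Igfbp6. They were taken as all probe sets whose platform gene symbol is one of these names, which gave 20 probe sets of the 22626 on the array that are not controls, and 10 of the 12393 genes these name by a single symbol. A probe set is a group of short oligonucleotides that are read together as 1 signal. Of the 20, 8 were bright enough to be tested, covering 7 genes, and 12 were not. The cells were TTE3, a mouse Sertoli cell line whose founder mice were transgenic for simian virus 40 large T-antigen in a temperature-sensitive form, and every sample carries that transgene. The groups differ in the time the cells had spent at the nonpermissive temperature of 39 °C, 0, 6, 12 or 24 h, with 2 numbered samples per time and 1 Affymetrix Mouse Expression Array 430A per sample, 8 in all. The 0 h samples are the controls. The later samples differ from them in exposure to 39 °C, in any effect of that temperature on the T-antigen and in time in culture. These cannot be told apart. The labels do not give the promoter of the transgene, the number of clones behind the line or whether the 2 samples of a time were grown apart. The p-values therefore reflect only how far these samples spread, and that spread may be technical.

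IGF-I and IGF-II are secreted peptides that act through the IGF-I receptor, a tyrosine kinase encoded by Igf1r, which phosphorylates the docking proteins IRS-1 and IRS-2 and so switches on PI3-kinase, Akt and the RAS and MAP kinase cascade. The protein made from Igf2r, the cation-independent mannose 6-phosphate receptor, does not signal in this way: it carries IGF-II to lysosomes for degradation and sorts newly made lysosomal enzymes. The IGF binding proteins hold IGFs outside the cell and, depending on the protein and the tissue, limit or prolong their action. In the testis, IGF signalling is known to drive the proliferation of Sertoli cells before they mature.

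The 4 members with the clearest time courses were Igf2r, Igfbp2, Irs1 and Igf1, and the DNA just before their transcription starts is shown so that the genes behind the values can be placed. Each line gives the 250 bases before the RefSeq start in the GRCm38.p6 mouse assembly, 5′ to 3′ along the gene, in lower case with each match of GGGCGG, the GC box read by Sp1-type factors, in capitals. For Igfbp2, which has a further start in the table, the more upstream start was used.
Igf2r, chr17:12769707-12769956, minus strand: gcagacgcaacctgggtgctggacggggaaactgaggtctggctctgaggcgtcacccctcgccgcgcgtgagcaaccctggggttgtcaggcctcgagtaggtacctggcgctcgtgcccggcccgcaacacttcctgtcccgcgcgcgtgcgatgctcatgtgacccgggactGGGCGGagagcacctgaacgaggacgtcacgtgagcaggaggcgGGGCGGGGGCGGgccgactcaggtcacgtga
Igfbp2, chr1:72824230-72824479, plus strand: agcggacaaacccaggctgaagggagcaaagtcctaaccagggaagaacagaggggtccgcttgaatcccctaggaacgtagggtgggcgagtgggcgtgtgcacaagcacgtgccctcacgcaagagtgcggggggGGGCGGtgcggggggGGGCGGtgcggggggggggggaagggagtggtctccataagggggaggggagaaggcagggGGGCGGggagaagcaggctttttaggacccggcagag
Irs1, chr1:82291440-82291689, minus strand: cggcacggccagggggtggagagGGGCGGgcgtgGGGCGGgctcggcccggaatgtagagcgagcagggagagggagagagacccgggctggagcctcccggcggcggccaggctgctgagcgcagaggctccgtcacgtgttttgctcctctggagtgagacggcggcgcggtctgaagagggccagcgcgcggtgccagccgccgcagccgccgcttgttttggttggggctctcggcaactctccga
Igf1, chr10:87860861-87861110, plus strand: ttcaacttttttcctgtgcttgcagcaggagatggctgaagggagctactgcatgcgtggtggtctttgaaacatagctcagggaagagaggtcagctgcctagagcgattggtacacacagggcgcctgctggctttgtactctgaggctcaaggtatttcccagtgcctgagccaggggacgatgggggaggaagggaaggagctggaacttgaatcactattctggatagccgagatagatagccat
The windows of Igf2r and Igfbp2 held 3 matches each. Counting the base before the start as -1, they began at -75, -31 and -25 in Igf2r and at -113, -98 and -37 in Igfbp2. Irs1 held 2, at -227 and -216, and Igf1 held 0. The window at the other Igfbp2 start, not shown, held 0 as well. All 10 members matched the RefSeq promoter table, with 11 windows of 300 bases, each reaching 50 bases past the start, and 5 of the 11 held GGGCGG on either strand, against 35.7% of all 32851 windows in the table. TATAAA was in 2 of the 11 (Igfbp4 and Igfbp6), against 13.6% of all windows. The heat shock element core GAANNTTC, searched on both strands, was in 1 (Igfbp5), against 7.86%. The forkhead motif GTAAACA was in 0, against 3.65%. These are matches of letters in 1 window and say nothing of binding.

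The deposited values are signals on a linear scale, with array medians between 138.5 and 154.7 units. All arrays share nearly the same trimmed mean, so a change in total mRNA per cell would not be seen. In a bulk sample, fewer cells expressing a gene and less RNA per cell cannot be told apart either. The labelled cell type was checked on 18 Sertoli markers on the array, of which 9 were bright enough to test. Gata4 ran from 393.2 to 596.5 units, Nr5a1 from 245.9 to 358.2, Sox9 from 108.8 to 197.7 and Wt1 from 88.7 to 179.8 over the 8 arrays. Defining products of Sertoli cells were dim: Amh ran from 3.5 to 13.8 units, Fshr from 9.9 to 63.5 and Dmrt1 from 4.9 to 44.7, where the offset used for the log scale, the 20th percentile of all values, is 21.9. Among markers of other cell types, the summed signal of 5 fibroblast genes ranged over the 2 arrays of a time from 2173.5 to 2293.8 at 0 h, 1826.2 to 2089.6 at 6 h, 2361.9 to 2369.7 at 12 h and 6423.7 to 7349 at 24 h. Of these 5 genes 2 were tested and both rose by 24 h, where 17.1% of all tested probe sets were called higher. Decorin (Dcn) made up most of the rise in the sum, with means of 1440.75 units at 0 h and 5848.05 at 24 h. Col1a1 went from 642.25 to 857.15, while Pdgfra, Col1a2 and Thy1 stayed below the filter on dim probe sets. The sum of 8 germ cell genes lay between 451.2 and 560.9 at 0 h and between 1434.7 and 1434.9 at 24 h. Kit was the single gene of these tested, and it made up most of the rise, with means of 300.75 units at 0 h and 1223.5 at 24 h. Tnp1 and Sycp3 were below the offset on every array. The summed Sertoli markers went from between 6892.6 and 6985.5 units at 0 h to between 9383.3 and 10248.4 at 24 h. Of the 9 tested, 2 were called as higher at 24 h (Clu and Inhbb), beside the same array-wide 17.1%. Clu made up most of the rise in the sum, with means of 1365.7 units at 0 h and 3763.95 at 24 h. At 6 h Wt1 was called lower by limma (adjusted p = 0.0446), and Inhbb (0.0098) and Kitl (0.0076) higher. Sums at 0 h and 24 h were 117.1 to 207.9 and 267.1 to 354.9 for 5 Leydig genes, and 434.9 to 535 and 574.5 to 576.7 for 6 macrophage and blood genes. The Leydig rise was mostly Star, the single gene of these tested, with means of 104.55 and 258.55 units. Of the 2 macrophage and blood genes tested, Cd68 was called higher by limma, from 200.4 to 310.05 units (adjusted p = 0.0306). Csf1r went from 166.8 to 122.7 and did not pass. For 6 peritubular myoid genes the sums were 318.5 to 395.2 and 313.8 to 416.7, and for 4 endothelial genes 146.1 to 148.4 and 181.3 to 213.2. Pecam1, under the filter, made up most of the endothelial rise, with means of 10.2 and 63.15 units. The part of these markers in the results on IGF genes was not tested.

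Over the 24 h, Igf2r rose, Igfbp2 fell, Irs1 rose for a short time and Igf1 fell late, and the other members with a tested probe set showed no change over the 4 times that passed. The moderated F-test of limma, which asks for any difference among the 4 times, called 5 of the 8 tested probe sets and 4 of the 7 tested genes at an adjusted p below 0.05. Over the whole array 40.1% of tested probe sets were called in the same way, so the members' share is read against a background in which change is common. Of the 8 probe sets, 2 were called at 6 h against 0 h (background 18%), 4 at 12 h against 0 h (24%) and 4 at 24 h against 0 h (32.9%). Between later times, 3 were called at 12 h against 6 h (background 8.32%), with 1 higher (4.61%) and 2 lower (3.71%). At 24 h against 12 h 3 were called (6.88%), with 2 higher (3.77%) and 1 lower (3.11%). At 24 h against 6 h 5 were called (24.9%), with 2 higher (13.6%) and 3 lower (11.3%). In both, and at 12 h and 24 h against 0 h, the 2 higher were the 2 probe sets of Igf2r. By gene, 2 of 7 were called at 6 h, 3 at 12 h and 3 at 24 h against 0 h. Between later times the genes called were 3 at 12 h against 6 h, 2 at 24 h against 12 h and 4 at 24 h against 6 h. The array-wide shares count probe sets. The backgrounds of the short steps are themselves unsteady: the 934 probe sets called at 24 h against 12 h became 84 with 24 h replicate 2 left out and 1645 with 6 h replicate 2 left out, and the 1130 at 12 h against 6 h ranged from 240 to 1552 over the alternatives. The comparisons with 0 h share their control samples. The median log2 change over the 8 was 0.11 at 6 h, 0.07 at 12 h and 0.03 at 24 h, beside 0.0026, 0.0053 and 0.016 over all tested probe sets.

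**Figure D1:**
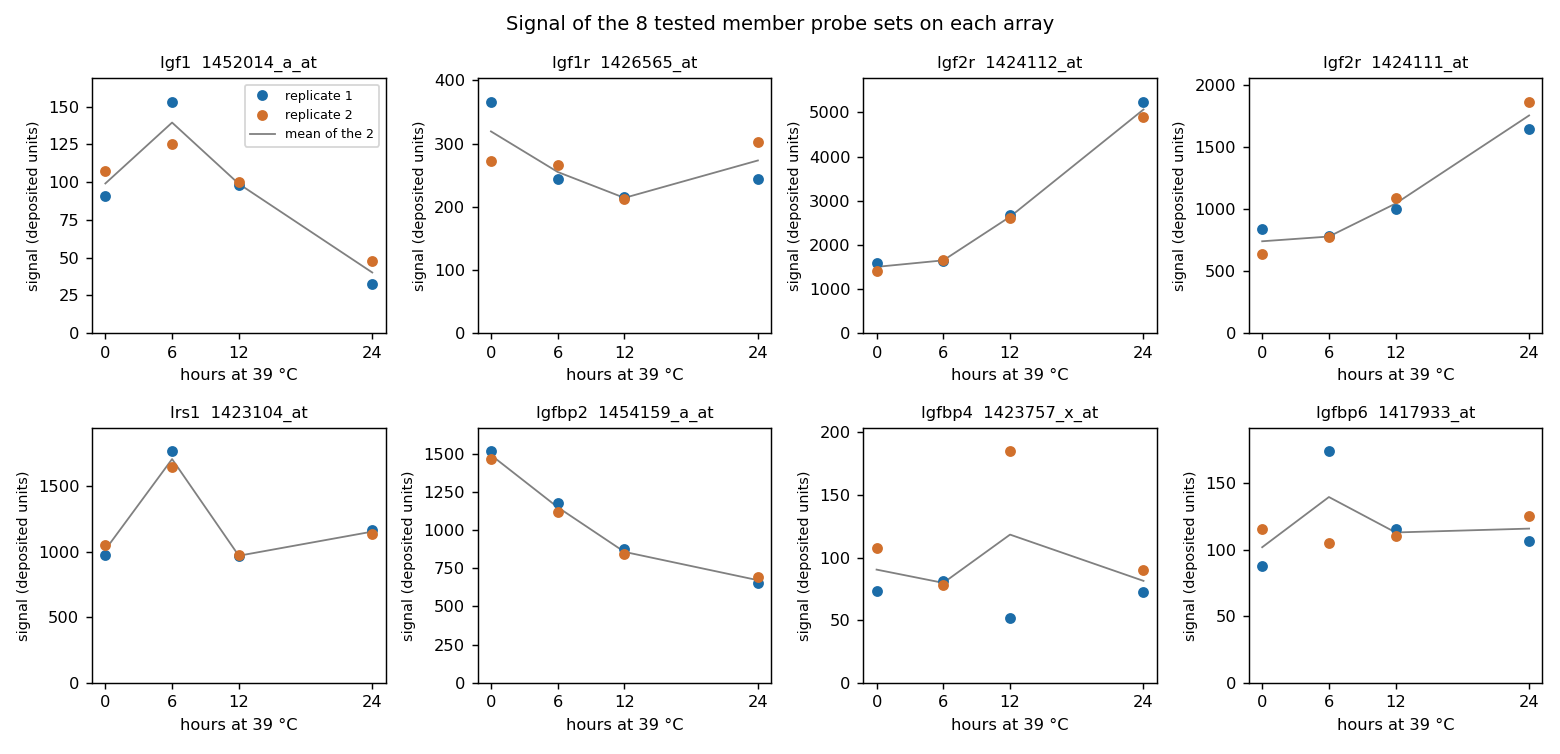
Signal in deposited units (vertical axis, from 0) against hours at 39 °C for the 8 tested member probe sets, with 1 point per array coloured by replicate number and a grey line through the mean of the 2 arrays. Igf2r reaches 5245.8 and 4886.6 units at 24 h in its brighter probe set, Igfbp2 falls to 653.4 and 690.3, and Irs1 peaks at 6 h with 1768.9 and 1649.8.

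The ligand was at the low end of the signals that were tested. Igf1, which encodes IGF-I, has 3 probe sets on the array, of which 1452014_a_at passed the filter, at the 42.3rd percentile of mean signal. That probe set gave 90.9 and 107.4 units at 0 h, 153.4 and 125.6 at 6 h, 97.8 and 100 at 12 h and 32.8 and 47.5 at 24 h. Both 24 h arrays were below every other array, and both 6 h arrays were above every other array. On the log2(signal + offset) scale, which understates the change of dim genes, it fell by 0.97 ± 0.24 (SE) from 0 h to 24 h (limma adjusted p = 0.0087). The step up at 6 h, 0.41 ± 0.24, did not pass (adjusted p = 0.253). From 6 h to 24 h the fall was 1.38 ± 0.24 (adjusted p = 0.0016), a 2.61-fold drop on that scale. The size depends on the offset: with the larger offset, at the 40th percentile, the log2 differences of 24 h were -0.58 from 0 h and -0.88 from 6 h, both still called. From 12 h to 24 h it fell by 0.97 ± 0.24 (adjusted p = 0.0329), and this step was not called without a filter (adjusted p = 0.089), with only the 2 times compared (0.0758), or without any single array of 0, 12 or 24 h (0.0622 to 0.207). The fall from 0 h was not called without 0 h replicate 2 (adjusted p = 0.0725) or without 24 h replicate 1 (0.073).

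The other 2 Igf1 probe sets lay under the filter and were not called. In 1419519_at the signal was 58.2 and 88.4 at 0 h, 106.7 and 91.8 at 6 h, 40.9 and 62.7 at 12 h and 30.8 and 46.1 at 24 h. In 1437401_at it was 66.4 and 75.2 at 0 h, 66.9 and 62.7 at 6 h, 50.5 and 45.8 at 12 h and 23.2 and 60.9 at 24 h. In both, the 24 h arrays were below the 0 h arrays. Fitted without a filter, their log2 differences of 24 h from 0 h were -0.65 ± 0.30 (adjusted p = 0.203) and -0.60 ± 0.33 (adjusted p = 0.285). The IGF-II gene Igf2, tested with the wider pathway, averaged 89.2 ± 9.26 units at 0 h and 69.5 ± 29.8 at 24 h (SD, n = 2 each), and its log2 difference of -0.32 ± 0.31 did not pass.

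Of the receptor genes, Igf2r rose late and Igf1r was not called over the 4 times. Igf2r was measured by 2 probe sets, both tested, and both rose after 6 h. In the brighter, 1424112_at, the signal was 1596.6 and 1404.1 at 0 h, 1643 and 1653.2 at 6 h, 2664.9 and 2606.8 at 12 h and 5245.8 and 4886.6 at 24 h. The 12 h arrays were above all arrays of 0 and 6 h, and the 24 h arrays were above all others. The rise over 0 h was 0.81 ± 0.10 on the log2 scale at 12 h (adjusted p = 0.00024) and 1.74 ± 0.10 at 24 h (adjusted p = 9.17e-07), or 3.35-fold. At 6 h the difference was 0.14 ± 0.10 (adjusted p = 0.363). The rise ran on through both later steps, by 0.67 ± 0.10 from 6 to 12 h (adjusted p = 0.003) and by 0.94 ± 0.10 from 12 to 24 h (adjusted p = 0.0009). Of the 13576 tested probe sets, 93 had a higher log2 change at 24 h than this probe set.

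The other Igf2r probe set, 1424111_at, gave 839.4 and 641.2 units at 0 h, 780.5 and 776.6 at 6 h, 999.4 and 1089.6 at 12 h and 1642.8 and 1866.6 at 24 h. Its 6 h arrays lay between the 0 h arrays, and the 12 h and 24 h arrays were above them. It rose by 0.50 ± 0.13 at 12 h (adjusted p = 0.0197) and by 1.23 ± 0.13 at 24 h (adjusted p = 5.36e-05), 2.35-fold. The 95% intervals of the 24 h change were 1.53 to 1.96 for 1424112_at and 0.94 to 1.52 for 1424111_at, and the difference between the probe sets was not tested. For 1424111_at the step from 6 to 12 h did not pass (0.41 ± 0.13, adjusted p = 0.08) and the step from 12 to 24 h did (0.73 ± 0.13, adjusted p = 0.0106). Without 0 h replicate 2 its 12 h change was 0.31 (adjusted p = 0.199), and that call was also lost without 12 h replicate 2 (0.107) and without a variance trend (0.0502). Its last step was not called without 12 h replicate 1 (0.0661), 24 h replicate 1 (0.0534) or 24 h replicate 2 (0.112).

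Igf1r, the gene of the signalling receptor, was not called by the F-test (adjusted p = 0.124). Its tested probe set, 1426565_at, gave 366.4 and 272 units at 0 h, 244.4 and 265.6 at 6 h, 215.8 and 212.2 at 12 h and 244 and 302.4 at 24 h. The 0 h arrays were far apart, and the 24 h arrays overlapped them. The 12 h arrays were the lowest, and that contrast alone was called, at -0.52 ± 0.17 against 0 h (adjusted p = 0.0475). The 12 h call ended without 0 h replicate 1 (-0.32, adjusted p = 0.348), without either 12 h array (0.122 and 0.141), without either 24 h array (0.0587 and 0.0601), without a filter (0.104) and without a variance trend (0.0571). At 24 h the difference from 0 h was -0.20 ± 0.17, with a 95% interval from -0.58 to 0.17, so a modest change in either direction is not excluded at this precision. A second Igf1r probe set, 1452108_at, was under the filter, with signals from 12.7 to 73 units and its highest pair, 72.4 and 73, at 6 h.

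**Figure D2:**
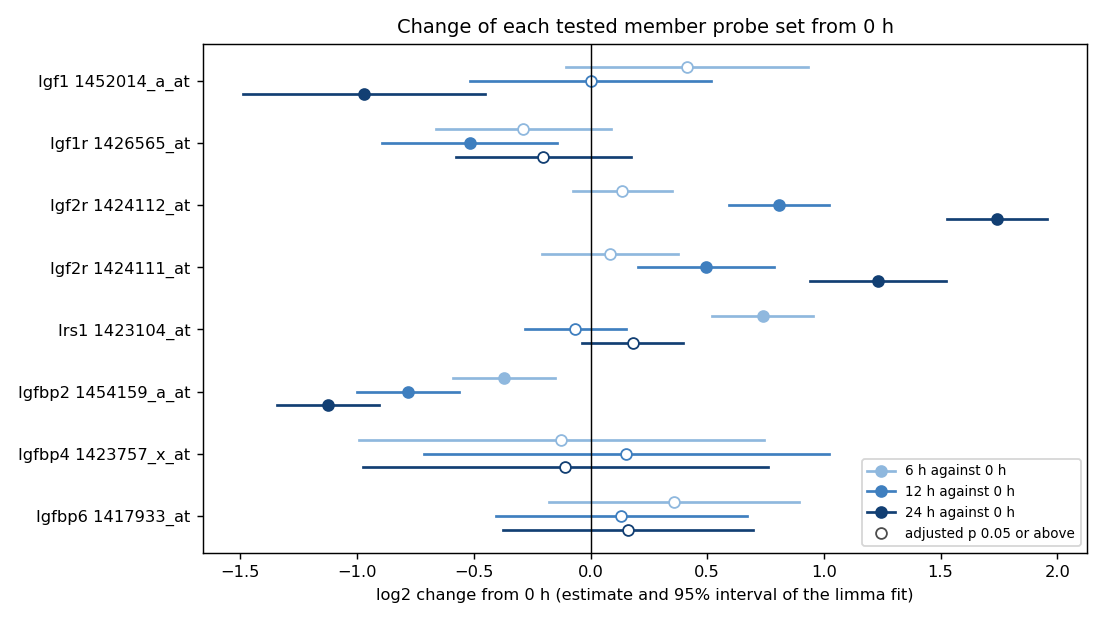
Log2 change from 0 h (horizontal axis) for each of the 8 tested member probe sets at 6, 12 and 24 h, in darker blue for later times, with the 95% interval of the limma fit. Filled points passed an adjusted p of 0.05 and open points did not: both Igf2r probe sets are filled on the right at 12 and 24 h, Igfbp2 is filled on the left at all 3 times, and Irs1 is filled at 6 h.

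Of the docking proteins, Irs1 rose for a short time and Irs2 was dim. Irs1, whose product links the receptor to PI3-kinase, gave 978.2 and 1055.9 units at 0 h, 1768.9 and 1649.8 at 6 h, 967 and 974.6 at 12 h and 1170.2 and 1140 at 24 h. The 6 h arrays were above all others, and the 12 h arrays were just under the 0 h arrays. Irs1 rose 1.67-fold at 6 h (log2 change 0.74 ± 0.10, adjusted p = 0.00073) and fell by 0.80 ± 0.10 from 6 to 12 h (adjusted p = 0.0014). At 12 h it differed from 0 h by -0.06 ± 0.10 (adjusted p = 0.681), with a 95% interval from -0.28 to 0.15. At 24 h it stood at 0.18 ± 0.10 above 0 h (adjusted p = 0.19), and the step from 12 to 24 h, 0.25 ± 0.10, did not pass (adjusted p = 0.168). From 6 to 24 h it fell by 0.56 ± 0.10 (adjusted p = 0.0021). The 6 h level thus stood above the other 3 times, and the differences among those 3 did not pass.

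Irs2 has 1 probe set, 1443969_at, under the filter, with 69.6 and 71.5 units at 0 h, 58 and 84.6 at 6 h, 31.8 and 33.8 at 12 h and 79.1 and 41.3 at 24 h. The 12 h arrays were the lowest pair. Without a filter the 12 h difference from 0 h was -0.76 ± 0.31 (adjusted p = 0.172).

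Among the binding proteins, Igfbp2 was the single bright gene and it fell throughout. Igfbp2, which encodes a binding protein with a preference for IGF-II, gave 1516 and 1466.6 units at 0 h, 1179.2 and 1120.2 at 6 h, 873.7 and 840.8 at 12 h and 653.4 and 690.3 at 24 h. Every array of a later time was below every array of the time before. It fell by 0.37 ± 0.10 at 6 h (adjusted p = 0.0257), by 0.78 ± 0.10 at 12 h (adjusted p = 0.00033) and by 1.13 ± 0.10 at 24 h (adjusted p = 1.45e-05), so that the level at 0 h was 2.18-fold that at 24 h. The step from 6 to 12 h was -0.41 ± 0.10 (adjusted p = 0.0293), and that from 12 to 24 h was -0.34 ± 0.10 and did not pass (adjusted p = 0.064). Of the 13576 tested probe sets, 133 had a lower log2 change at 24 h.

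The 12 and 24 h calls of Igfbp2 against 0 h held in every alternative run, while those of the smaller steps did not. The 6 h call ended without 0 h replicate 1 (adjusted p = 0.167), 0 h replicate 2 (0.115) or 6 h replicate 2 (0.0532), without a variance trend (0.0524) and with only the 2 times compared (0.0583). The 6 to 12 h call ended without any single array other than 6 h replicate 2 (0.0543 to 0.128), without a variance trend (0.0643) and with only those 2 times (0.136).

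Igfbp4 and Igfbp6 were tested and not called at any time. Igfbp6, which encodes a binding protein selective for IGF-II, gave 88.1 and 115.8 units at 0 h, 174.1 and 105.3 at 6 h, 115.6 and 110.5 at 12 h and 106.6 and 125.3 at 24 h, and its groups overlapped throughout. Its 24 h difference from 0 h was 0.16 ± 0.24, with a 95% interval from -0.38 to 0.70. Igfbp4 has 6 probe sets, and the tested member, 1423757_x_at, gave 73.2 and 107.6 units at 0 h, 81.1 and 78.5 at 6 h, 51.8 and 184.9 at 12 h and 72.8 and 90 at 24 h. The 2 arrays of 12 h were the lowest and the highest of the 8. Its 24 h difference was -0.11 ± 0.40 with a 95% interval from -0.98 to 0.76. Probe sets whose name ends in x_at hold probes that can also match other transcripts, so the signal of this Igfbp4 probe set is uncertain. The sign of the 24 h difference is not settled for Igfbp4, at 0.11 without 0 h replicate 2 and 0.012 without 24 h replicate 1, nor for Igfbp6, at -0.0018 without 0 h replicate 1.

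The remaining binding protein probe sets were dim. Of the 11 probe sets of the 5 binding protein genes, 3 were tested. The other 5 of Igfbp4 ran from 1.6 to 97.5 units, and 1421991_a_at was below the offset on all 8 arrays. Igfbp5, which like Igfbp2 lies on chromosome 1, had 61.5 and 41.2 units at 0 h, 49.8 and 21.6 at 6 h, 53.2 and 64.6 at 12 h and 71 and 98.1 at 24 h in 1422313_a_at, and stayed between 1.7 and 20.3 in 1452114_s_at. Without a filter the 24 h differences from 0 h were 0.54 ± 0.33 (adjusted p = 0.349) and 0.48 ± 0.30 (adjusted p = 0.356). Igfbp3, the main carrier of IGFs in blood, gave 13.1 and 2.6 units at 0 h, 27.9 and 38.4 at 6 h, 5.2 and 1.6 at 12 h and 12.3 and 9.8 at 24 h. The 6 h arrays were the highest pair and the only arrays above the offset of 21.9 units. Without a filter the F-test called Igfbp3 (adjusted p = 0.0483), while its rise at 6 h of 0.90 ± 0.26 did not pass (adjusted p = 0.0659). In that fit 0 of the 72 pairwise contrasts of the 12 dim probe sets were called by limma, and 10 had an unadjusted p under 0.05.

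**Figure D3:**
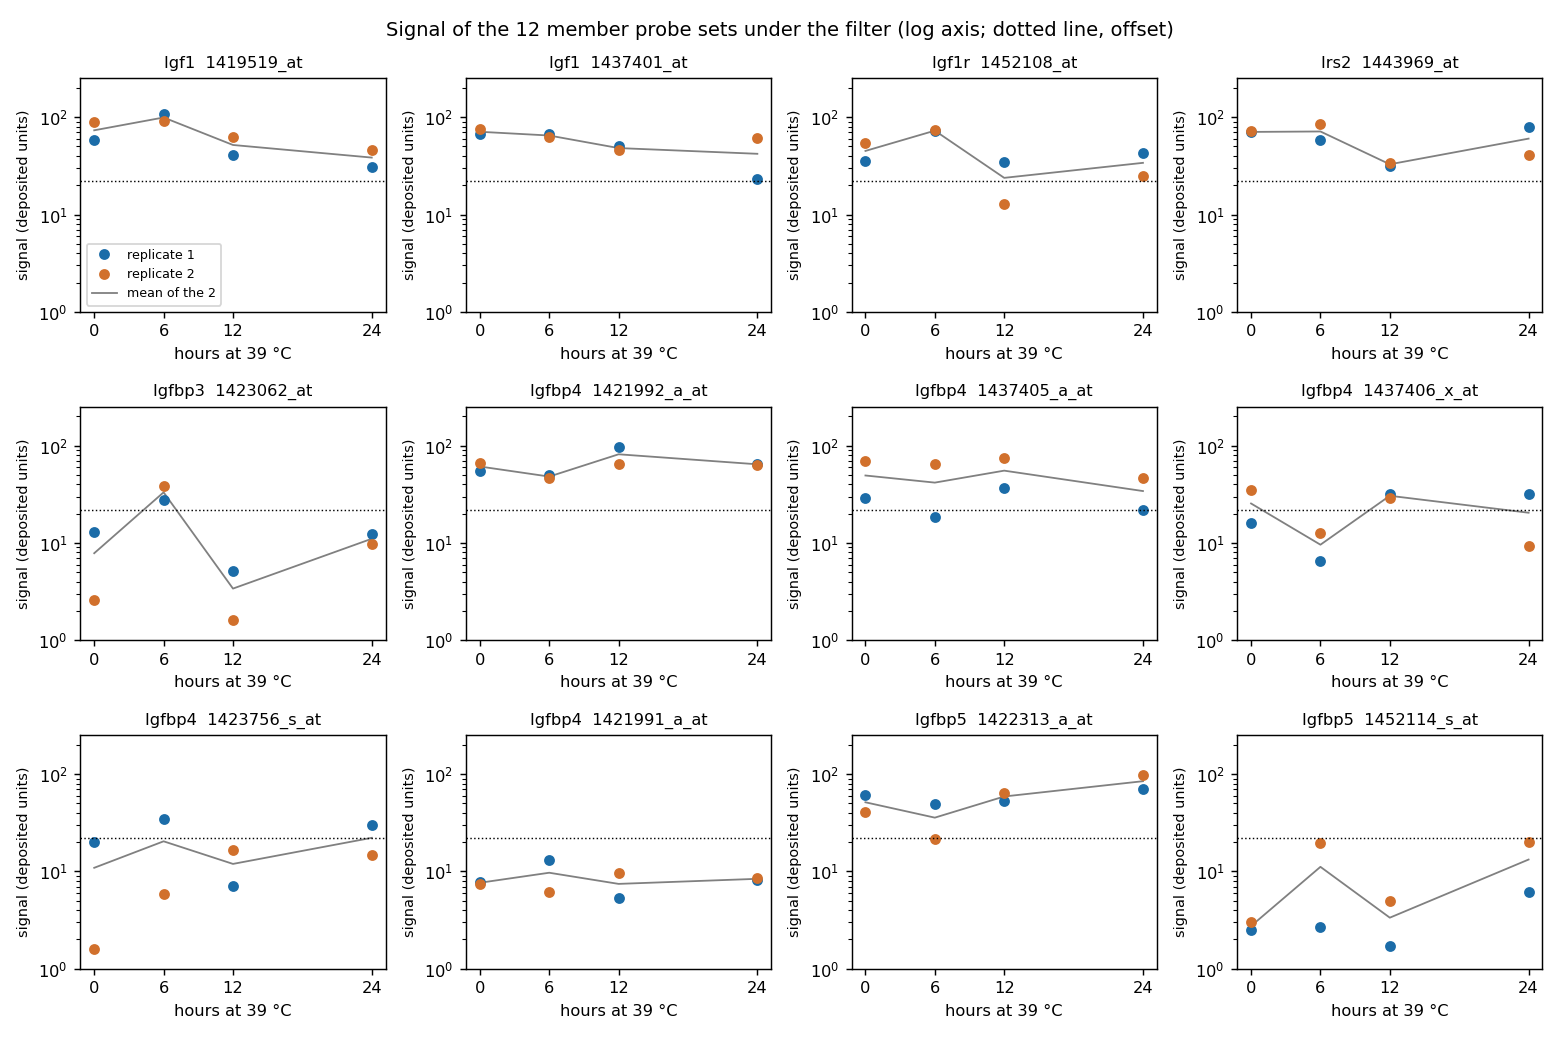
Signal in deposited units (log axis) against hours at 39 °C for the 12 member probe sets under the filter, with 1 point per array, a grey line through the mean of the 2 arrays and a dotted line at the offset of 21.9 units. The signals run from 1.6 to 106.7 units, and 8 of the 12 probe sets have at least 1 array below the offset.

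Around these genes, members of the wider pathway rose and fell in similar numbers at 6 h. Of 94 other genes listed for the pathway, 77 are on the array under 1 symbol and 57 had a tested probe set, the brightest being used. The F-test called 21 of the 57, against 40.1% of all tested probe sets. At 6 h against 0 h, 4 rose and 4 fell (background 8.65% higher and 9.33% lower), at 12 h 7 rose and 9 fell (12.1% and 11.9%), and at 24 h 15 rose and 9 fell (17.1% and 15.8%). As shares of the 57 that is 7.02% each way at 6 h, 12.3% and 15.8% at 12 h and 26.3% and 15.8% at 24 h. The median log2 change of the 57 was -0.025, -0.040 and -0.0048 at the 3 times. With each array centred on its median, which lowers log2 changes at 24 h by 0.10, 12 rose and 14 fell at that time, and the array-wide split at 24 h went from 2326 higher and 2146 lower to 1721 and 2865. At 24 h fewer genes fell without any single array of 0 or 24 h, and fewer rose without either 0 h array or 24 h replicate 1. At 6 h fewer rose and fewer fell without either 0 h array, and fewer rose without 24 h replicate 1. At 12 h fewer rose and fewer fell without either 0 h array, and fewer fell without 12 h replicate 2. In each of these runs fewer probe sets were called array-wide as well, so the drop was not confined to the pathway genes.

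Of the proteases that cut binding proteins and their inhibitors, 9 were tested, and at 24 h 3 rose and 1 fell, where the array-wide shares are 17.1% higher and 15.8% lower. The counts by role were not tested against these shares. The lysosomal protease gene Ctsd, whose product is a cargo of the receptor made from Igf2r, rose from 2783 ± 120.3 to 5540.2 ± 184 units (SD, n = 2 each), a log2 change of 0.99 ± 0.10 (adjusted p = 3.48e-05). M6pr, the gene of the smaller mannose 6-phosphate receptor, was at -0.0048 ± 0.098 (adjusted p = 0.977), and its other tested probe set was at 0.21. Htra1, which encodes a secreted serine protease that cleaves binding proteins, fell by 0.82 ± 0.10 (adjusted p = 0.00011). Adam17, a membrane sheddase gene, rose by 0.50 ± 0.11 at 12 h (adjusted p = 0.0078, but 0.0778 without 0 h replicate 2). Plat, the tissue plasminogen activator gene, rose by 0.58 ± 0.13 at 24 h (adjusted p = 0.006, but 0.0704 without 0 h replicate 1 and 0.0786 without 24 h replicate 1). Igfbp7, a related secreted protein gene with low affinity for IGFs, rose from 1156 ± 44.7 to 1896 ± 298 units (log2 change 0.69 ± 0.12, adjusted p = 0.0013).

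Below the receptor, 7 tested genes were listed as adaptors, phosphatases and other proteins taken to dampen signalling, a role not tested here. Of these 3 rose (Grb14, Inppl1 and Nedd4) and 1 fell (Grb10) at 24 h, beside 17.1% and 15.8% array-wide. Grb14, an adaptor that inhibits the insulin receptor, fell by 0.79 ± 0.12 at 6 h (adjusted p = 0.0017) and was 0.64 ± 0.12 above 0 h at 24 h (adjusted p = 0.0023). Its relative Grb10 went the other way, up by 0.39 ± 0.11 at 6 h (adjusted p = 0.0286) and down by 0.64 ± 0.11 at 24 h (adjusted p = 0.001), with the least changed of its 3 tested probe sets at -0.22 at 24 h. Inppl1, the gene of the lipid phosphatase SHIP2, rose by 0.75 ± 0.12 at 24 h (adjusted p = 0.00057), and the ubiquitin ligase gene Nedd4 by 0.44 ± 0.09 (adjusted p = 0.0039, but 0.0543 without 24 h replicate 1). Of 11 other substrates and adaptors, 2 rose (Gab1 and Sos2) and 0 fell at 24 h by limma, and the 18.2% that rose is near the array-wide 17.1%. Gab1, a docking protein gene, rose by 0.56 ± 0.13 at 12 h (adjusted p = 0.0108), a call lost without 0 h replicate 1 (0.0638), 0 h replicate 2 (0.0723) or 12 h replicate 1 (0.066). Sos2, a RAS exchange factor gene, rose by 0.56 ± 0.18 at 24 h (adjusted p = 0.035), a call lost without any single array of 0 or 24 h (0.0655 to 0.212), after quantile normalization (0.0568), with median-centred arrays (0.0805), without a filter (0.079) and without a variance trend (0.0549).

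In the PI3-kinase and Akt group, 3 of 7 tested genes rose (Pdpk1, Pik3ca and Pik3r1) and 1 fell (Akt1) at 24 h, beside 17.1% and 15.8% array-wide, with Pdpk1 just inside the threshold (adjusted p = 0.0488). Pik3r1, the regulatory subunit gene of PI3-kinase, rose by 0.80 ± 0.15 (adjusted p = 0.0018) and the catalytic subunit gene Pik3ca by 0.56 ± 0.15 (adjusted p = 0.013, but 0.0519 to 0.0882 without any single array of 0 or 24 h). Akt1 fell by 0.63 ± 0.14 (adjusted p = 0.0058, but 0.0634 without 0 h replicate 1 and 0.0642 without 24 h replicate 2). Among 13 genes of the FOXO, GSK3 and mTOR branch, 2 rose (Foxo3 and Tsc1) and 2 fell (Rps6kb2 and Tsc2) at 24 h. That is 15.4% each way, near the array-wide 17.1% and 15.8%, and the F-tests of Rps6kb2 and Tsc2 did not pass (adjusted p = 0.0625 and 0.0825). The counts rest on the brightest probe set of each gene, and others can differ. At 24 h Mtor was at 0.0039 in the brightest and at -0.99 in its other tested probe set. Eif4ebp2 was at -0.15 in the brightest of 4 and at 0.62 in the highest. Foxo3, a transcription factor gene whose product Akt holds out of the nucleus, rose from 407 ± 132 to 1526 ± 126 units, the largest log2 change of the named pathway genes at 1.88 ± 0.27 (adjusted p = 0.00033), and its other tested probe set rose by 1.42. Tsc1, a brake on mTORC1, rose by 0.74 ± 0.12 (adjusted p = 0.00089), but its other tested probe set was at -0.16. Deptor, an mTOR inhibitor gene, fell by 0.58 ± 0.11 at 6 h (adjusted p = 0.0057, but 0.0713 without 0 h replicate 1).

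In the RAS and MAP kinase branch, 1 of 5 tested genes rose (Map2k1) and 3 fell (Araf, Map2k2 and Nras) at 24 h, beside 17.1% and 15.8% array-wide. The F-tests of Map2k1 (adjusted p = 0.149), Araf (0.101) and Map2k2 (0.0539) did not pass. Nras fell by 0.66 ± 0.11 at 12 h (adjusted p = 0.0019), and the least changed of its 3 tested probe sets was at -0.10. Of the Igf2 mRNA-binding proteins, Igf2bp1 fell by 0.66 ± 0.17 at 24 h (adjusted p = 0.0114, but 0.0548 to 0.0766 without any single array of 0 or 24 h). Igf2bp3 fell by 0.57 ± 0.11 at 6 h (adjusted p = 0.0054, but 0.0611 without 0 h replicate 2).

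**Figure D4:**
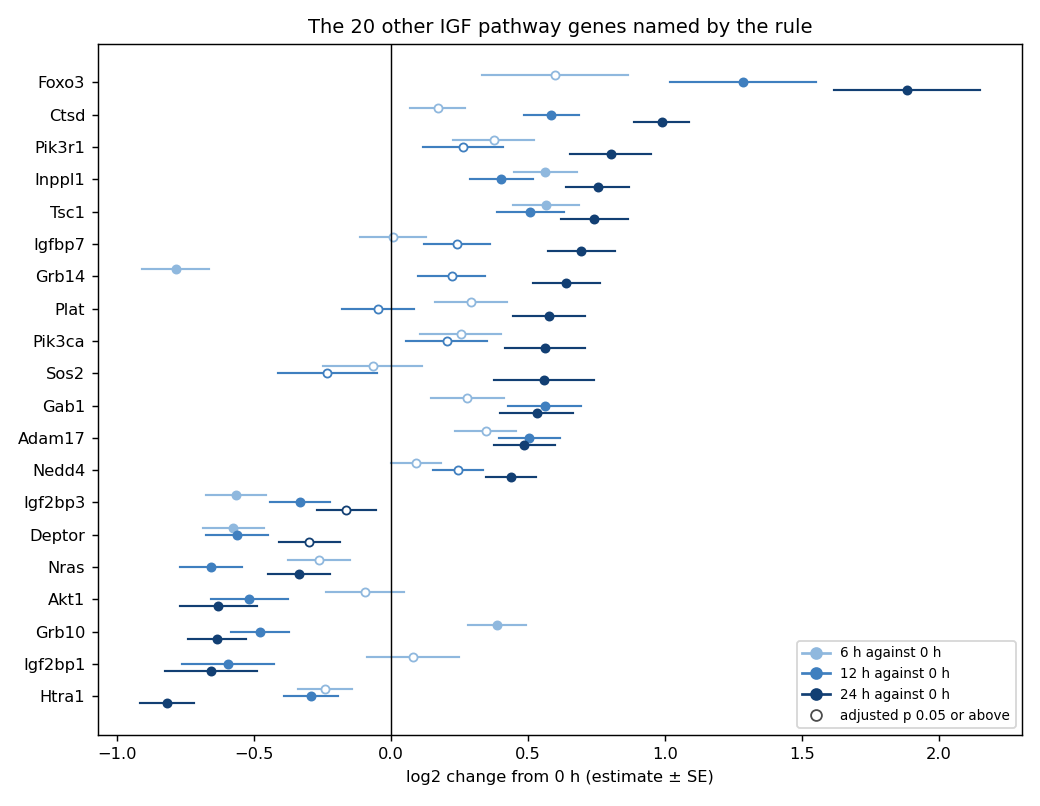
Log2 change from 0 h with its standard error (horizontal axis) for the 20 other pathway genes chosen by size among those called by the F-test, at 6, 12 and 24 h in darker blue for later times. Filled points passed an adjusted p of 0.05: Foxo3 is the farthest right at 1.88, Htra1 the farthest left at 24 h at -0.82, and Grb14 and Grb10 change sides between 6 and 24 h.

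The time courses closest to those of Igf2r and Igfbp2 were found by the root mean square difference of log2 values over the 8 arrays, each profile set relative to its own 0 h mean. Nearest to Igf2r 1424112_at were a probe set of Clu (clusterin, a Sertoli secretory product) at 0.14, Tcn2 (the vitamin B12 carrier transcobalamin) at 0.14, Ypel3 at 0.14, Fut8 (a fucosyltransferase of N-glycans) at 0.16 and Sesn1 (sestrin 1) at 0.16. Their log2 changes at 24 h ran from 1.54 to 1.84, around the 1.74 of Igf2r. Nearest to Igfbp2 were Tbrg4 at 0.061, Cnn2 (calponin 2) at 0.063, Orc2 (a subunit of the origin recognition complex) at 0.082, Fn1 (fibronectin) at 0.083 and Dnajc2 (a ribosome-associated chaperone) at 0.084. Their log2 changes at 24 h ran from -1.23 to -1.01, around the -1.13 of Igfbp2. This is a ranking by shape over arrays that share time and processing, and carries no test.

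**Figure D5:**
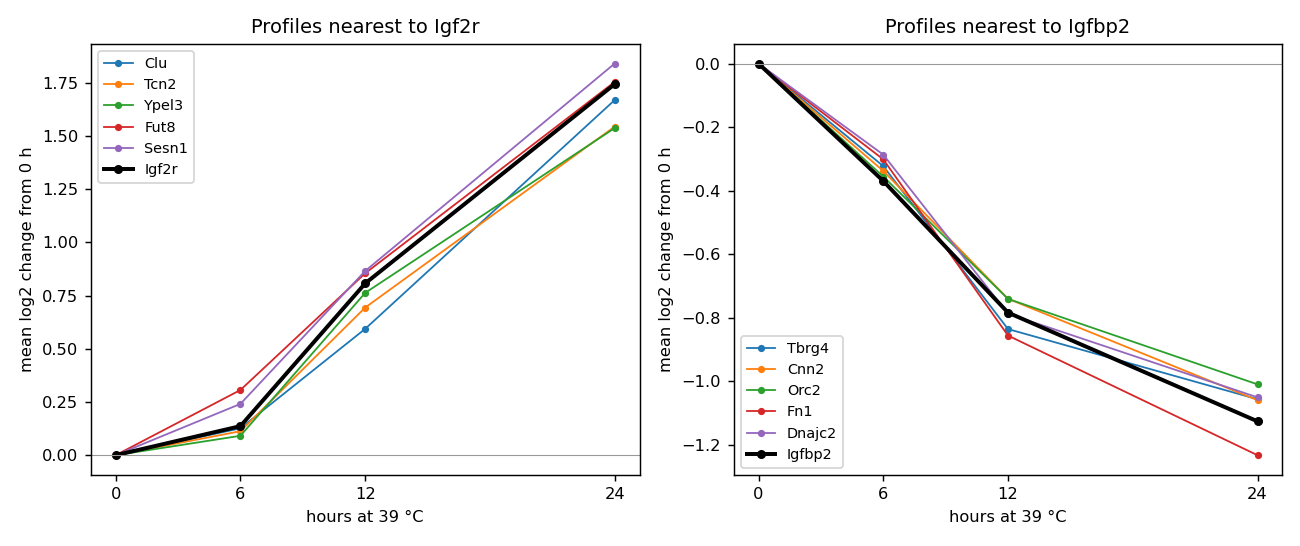
Mean log2 change from 0 h against hours at 39 °C for Igf2r (left, black) and Igfbp2 (right, black) with the 5 probe sets nearest to each in colour. The left curves lie between 0.09 and 0.31 at 6 h and reach 1.54 to 1.84 at 24 h, and the right curves fall from 6 h on and reach -1.01 to -1.23.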

How the data were processed

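RNA of TTE3 cells after 0, 6, 12 and 24 h at 39 °C was hybridised to 8 Affymetrix 430A arrays, 2 per time, per the labels. Linear-scale intensities per probe set were deposited, running from 0.1 to 38130.2. How they were computed is not given in the sources used here. Each array had a 2% trimmed mean of 500.2, so the arrays had been scaled before deposit. Detection calls were not used here, so a dim value is not shown to be above background, and 2 arrays per time limit the precision. The 64 control probe sets were left out. Of the remaining 22626, 20380 had 1 symbol, 691 several and 1555 none. Checked by gene identifier against the RefSeq table of GRCm38.p6, 0 symbols changed. Values were taken as log2(intensity + 21.9), the offset being the 20th percentile, and folds are powers of 2 of log2 changes. Probe sets under the 40th percentile of mean log2 value (6.58) were left out, which left 13576.

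All 8 arrays entered 1 model by time in limma 3.58.1 under R 4.3.3 (lmFit and trended eBayes, 4 residual degrees of freedom), with 2-sided contrasts and Benjamini-Hochberg adjustment over all 13576. Calls are at an adjusted p below 0.05, and values after ± are standard errors unless SD is named. The method was tested on simulated data. For 24 h against 0 h in 13576 simulated probe sets it called 32 of 67 changes of 0.5 on the log2 scale, 62 of 67 of 1 and 66 of 66 of 2, with 15 unchanged probe sets called as well. Those 15 are a larger share of all calls than the threshold of 0.05 aims for. Far fewer probe sets were changed in the simulation than the 32.9% called in the data, and its noise was independent and normal. Recovery in the data may therefore differ. Alternatives were offsets at the 10th and 40th percentiles, no filter, a filter at the 60th percentile, quantile normalization, median-centred arrays, no variance trend, only the 2 times compared, the replicate number as a block and each array left out, where the remaining array of a time is assumed to vary like the others. Members and gene lists were chosen with earlier results of these data known. All members were named, with the 20 other pathway genes of largest log2 change from 0 h among those called by the F-test and, for the member with the largest rise and the largest fall at 24 h, the 5 probe sets of nearest profile. Promoter sequences are those of RefSeq, GRCm38.p6.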

Additional observations from a re-analysis of the deposited data

How the results depend on the processing

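The calls of Igf2r 1424112_at at 12 and 24 h, Igfbp2 at 12 and 24 h and Irs1 at 6 h, each against 0 h, held in all 17 alternatives run for each. The number of member probe sets called at 6 h against 0 h went from 2 to 1 without a variance trend and to 1 with only the 2 times compared, leaving Irs1. The number at 12 h against 0 h went from 4 to 2 without a variance trend. With single arrays left out, the counts ranged from 5 to 5 for change over the 4 times, 1 to 2 at 6 h against 0 h, 2 to 4 at 12 h against 0 h, 3 to 4 at 24 h against 0 h, 2 to 3 at 12 h against 6 h, 1 to 4 at 24 h against 12 h and 5 to 5 at 24 h against 6 h. The log2 difference of 24 h from 0 h then ranged from -0.33 to 0.11 for Igfbp4 and from -0.0018 to 0.32 for Igfbp6, and changed sign. Without 12 h replicate 1, 24 h replicate 1 or 24 h replicate 2, the call left at 24 h against 12 h was that of Igf2r 1424112_at. Fewer members were called at 12 h against 0 h without 12 h replicate 2. In these runs fewer probe sets were called array-wide as well. The 2 replicate numbers give fewer than 3 pairs, so they are not taken to pair the samples. Deviations of replicate 1 correlated between times with r from 0.05 to 0.18 over probe sets, which are not independent. With the replicate number as a block, 5 member probe sets were called over the 4 times, 2 at 6 h, 3 at 12 h and 4 at 24 h against 0 h, 3 at 12 h against 6 h, 3 at 24 h against 12 h and 5 at 24 h against 6 h, and the block ended the 12 h call of Igf1r (adjusted p = 0.0508). Array-wide, the F-test called 5447 probe sets, and 3303 to 6608 over the alternatives, with the lowest count without 0 h replicate 1. The pairwise counts over the alternatives were 836 to 3005 at 6 h, 1523 to 4148 at 12 h and 2595 to 5797 at 24 h against 0 h, 240 to 1552 at 12 h against 6 h, 84 to 1645 at 24 h against 12 h and 1746 to 3827 at 24 h against 6 h. The causes of these shifts were not tested. Signal near the offset limits Igf1, Irs2, Igfbp3, Igfbp4 and Igfbp5, where no detection call was used.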
